A study of Mus musculus with 86 samples.

Results

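This report gives the levels of p53 target genes in mouse neuronal lines after an induced loss of TDP-43. The 9 members were picked as known genes that p53 switches on, and 9 of 9 had a count, out of 37451 genes with a count in a CAD or N2A library. The members were Mdm2, Cdkn1a, Ccng1, Gtse1, Bax, Aen, Phlda3, Trp53inp1 and Zmat3. p53 is a transcription factor that cells stabilize after DNA damage and other stress, and its RNA level can stay the same while the protein accumulates. The active protein raises transcription of genes that stop the cell cycle, start cell death, repair DNA or shut p53 down again. RNA levels of such targets are a common readout of p53 activity, although most targets also answer to other factors.

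The knockout samples came from CAD and N2A cells, 2 mouse lines that grow neurites when serum is withdrawn and that lost their own TDP-43 genes by genome editing in single-cell clones. Their only source of TDP-43 was a transgene that doxycycline shuts off, so cells without doxycycline are called wild-type here and cells with 2 μg/mL for 48 h are called knockout. Soma and neurites were taken from the 2 sides of a porous membrane, with 3 libraries for each line, genotype and compartment. A further set of CAD cells carried a doxycycline-induced transgene of wild-type or Q331K TDP-43, also with 3 libraries for each allele and compartment. The cells of this set kept their own TDP-43 genes. By the methods, cells of each allele received doxycycline, for longer than the 48 h of the knockout cells. No wild-type sample of the knockout series received doxycycline, so doxycycline itself and the loss of TDP-43 cannot be told apart. A lower level in a culture can mean fewer cells of a type or less RNA per cell, and these data cannot tell the 2 apart. The replicates are not stated to be separate cultures, so each p-value measures spread between these samples and the spread may be technical.

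Depth was 25009904 to 32895542 estimated counts in the CAD libraries, 22726534 to 31911030 in the N2A libraries and 9783050 to 15870647 in the transgene libraries. All 9 members passed the expression filter in each of the 3 sets. Levels are CPM, estimated counts scaled to library size within a set, where library size was adjusted by the TMM factors of edgeR. Libraries are listed in the order of replicates 1, 2 and 3. The comparison of knockout with wild-type asked, in each line and compartment, which members moved with the loss of TDP-43. The comparison of CAD with N2A asked whether that change differed between lines, the change in Localization Ratio (LR, log2 of neurite over soma) asked whether it differed between compartments, and the transgene comparison asked what differed between the mutant and the wild-type protein.

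Tardbp, the gene of TDP-43, was read first as a check on the sample labels. Its exons overlap Masp2 on the opposite strand, so a small part of its reads is uncertain. In CAD soma, Tardbp was at 515, 569 and 526 CPM in wild-type and 92.7, 90.4 and 98.3 CPM in knockout libraries. CAD neurites held 536, 501 and 491 CPM of Tardbp before and 150.0, 134 and 129 CPM after loss. All knockout libraries of the line lay far below all wild-type libraries. In N2A soma, Tardbp was at 546, 601 and 590.1 CPM in wild-type and 160.0, 168 and 179 CPM in knockout libraries. N2A neurites held 695, 665 and 689 CPM of Tardbp in wild-type and 265, 264 and 243 CPM in knockout. The groups of this line did not overlap either, and more Tardbp RNA was left than in CAD cells. Tardbp fell to 0.175 of its wild-type level in CAD soma (edgeR adjusted p = 3.35e-12), 0.270 in CAD neurites (adjusted p = 3.92e-11), 0.291 in N2A soma (adjusted p = 2.58e-09) and 0.377 in N2A neurites (adjusted p = 1.59e-08). In the transgene set, Tardbp was at 808, 787 and 715 CPM with the wild-type allele and 745, 724 and 806 CPM with Q331K in soma. Neurites of that set held 863, 843 and 705 CPM of Tardbp with the wild-type allele and 875, 833 and 834 CPM with Q331K, and the 2 alleles overlapped in each compartment. Counts summed to genes do not separate the 2 alleles or the cells' own Tardbp, so they cannot check the allele labels.

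The members divide by what their products do, and positions are on build GRCm38. Mdm2 (ENSMUSG00000020184, chromosome 10, 117688875 to 117710758, minus strand, 9 transcripts) encodes the ubiquitin ligase that marks p53 for degradation and is the main feedback target. Cdkn1a (ENSMUSG00000023067, chromosome 17, 29090976 to 29100727, plus strand, 3 transcripts) encodes p21, the inhibitor of cyclin-dependent kinases that carries p53-driven arrest. Its exons overlap AC167363.2 on the opposite strand, so its counts are partly uncertain. Ccng1 (ENSMUSG00000020326, chromosome 11, 40748552 to 40755311, minus strand, 2 transcripts) encodes cyclin G1, which recruits a phosphatase to MDM2. Gtse1 (ENSMUSG00000022385, chromosome 15, 85859745 to 85876573, plus strand, 2 transcripts) encodes a microtubule protein made in S and G2 phase that moves p53 out of the nucleus. Bax (ENSMUSG00000003873, chromosome 7, 45461697 to 45466898, minus strand, 6 transcripts) encodes a pore-forming protein of the mitochondrial death pathway. Bax overlaps Gm45808 on the same strand, which makes its counts partly uncertain too. Aen (ENSMUSG00000030609, chromosome 7, 78895854 to 78911209, plus strand, 9 transcripts) encodes a nuclease that degrades DNA in dying cells. Phlda3 (ENSMUSG00000041801, chromosome 1, 135766119 to 135769136, plus strand, 2 transcripts) encodes a membrane-lipid binder that blocks the survival kinase AKT. Trp53inp1 (ENSMUSG00000028211, chromosome 4, 11156431 to 11174379, plus strand, 4 transcripts) encodes a nuclear protein of stress, autophagy and death. Zmat3 (ENSMUSG00000027663, chromosome 3, 32334792 to 32366014, minus strand, 4 transcripts) encodes a zinc finger protein that binds RNA and acts on splicing.

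Before knockout the members were already transcribed in each line. Per length, Mdm2 was highest in wild-type CAD soma at 87.5 ± 17.7 TPM (SD, n = 3), ahead of Bax at 67.8 ± 11.8 TPM (SD, n = 3). The TPM ranges of these 2 genes overlapped. Cdkn1a followed at 45.5 ± 5.32 TPM (SD, n = 3), then Aen at 34.4 ± 5.92, Zmat3 at 31.8 ± 5.46 and Phlda3 at 25.9 ± 5.85 TPM (SD, n = 3). Each of these neighbours overlapped in TPM with the next, while Bax lay above Cdkn1a in all 3 libraries. Ccng1 was at 16.8 ± 3.63, Trp53inp1 at 10.0 ± 1.71 and Gtse1 at 0.532 ± 0.112 TPM (SD, n = 3), each below the range of the gene before it. Gtse1 thus started at the edge of detection in CAD soma, with 30.0 to 36 estimated counts in a wild-type library.

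In wild-type N2A soma the TPM order was led by Bax at 93.6 ± 8.28 TPM (SD, n = 3), above Mdm2 at 60.3 ± 9.24 TPM in every library. Cdkn1a stood at 48.6 ± 7.06 TPM (SD, n = 3) and overlapped Mdm2. Phlda3 at 31.2 ± 7.32 and Aen at 24.8 ± 3.14 TPM (SD, n = 3) overlapped each other and lay below Cdkn1a. Zmat3 at 17.6 ± 2.20 and Trp53inp1 at 15.4 ± 2.34 TPM (SD, n = 3) formed the next pair, also not separated beyond their spread. Ccng1 at 7.35 ± 1.12 and Gtse1 at 2.25 ± 0.457 TPM (SD, n = 3) were the lowest, and their ranges did not meet. In the transgene set, wild-type allele, Mdm2 was at 103 ± 7.17 TPM and Gtse1 at 5.66 ± 0.809 TPM in soma (SD, n = 3), again the top and the bottom of the members. Library-wide shares held by 4 short genes (Mir6236, Gm23935, Gm24245 and Gm24270), seen only after the values were read, ran from 5.77% to 70.9% of TPM in CAD and N2A libraries. That share widens the spread of a member's TPM between libraries, and CPM carries the comparisons below for that reason.

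Ccng1 and Phlda3 were read almost wholly from a single transcript. Ccng1 took all of its TPM from ENSMUST00000020576 in wild-type CAD soma, and Phlda3 took 97.7% from ENSMUST00000038945. The main Mdm2 transcript, ENSMUST00000020408, held 63.4 ± 1.76% of Mdm2 TPM in wild-type and 67.4 ± 2.53% in knockout CAD soma (SD, n = 3). In N2A soma it held 59.8 ± 5.09% in wild-type and 72.8 ± 5.47% in knockout libraries (SD, n = 3), and these shares were not tested. Marker genes matched the neuronal label, since all 6 neuronal markers reached 1 CPM in every group and Tubb3 was the highest of them in CAD soma at 532 CPM. Of 5 catecholaminergic markers, 4 reached 1 CPM in wild-type CAD soma and 3 in wild-type N2A soma. Glial markers summed to 1.22 to 7.07 CPM and fibroblast markers to 1.34 to 5.43 CPM in CAD and N2A libraries, with Mog, C1qa and Col3a1 under 0.1 CPM in each group. Nuclear RNAs, mostly Malat1, were highest in replicate 1 of each CAD and N2A soma group, with 1832, 740.5 and 445 CPM in wild-type CAD soma.

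In CAD soma, members were called in each direction after the loss of TDP-43. Among the 9 members, 1 rose (Gtse1) beside 15.9% of all genes, and 3 fell (Mdm2, Ccng1 and Zmat3) beside 16.8% of all genes. The shift was broad in this comparison, with 32.7% of 17343 genes called by edgeR. The median change was -0.04 in log2 over the members and 0.00 over all genes. The 7 glial markers, mostly Mbp, summed to 1.24, 1.31 and 1.22 CPM in wild-type and 1.96, 2.54 and 1.78 CPM in knockout CAD soma, and neither of the 2 tested was called by edgeR. The 5 catecholaminergic markers, with Phox2a the most abundant, summed to 129, 144 and 160.4 CPM and 181, 205 and 193 CPM, with 1 called higher (Dbh, 23.8 to 63.5 CPM) and 1 lower (Th) by edgeR (median 0.12). Neuronal markers gave 2 of 6 lower (Stmn2 and Snap25, median -0.10). Mitochondrial genes held 4.19, 6.28 and 4.93% of counts in wild-type and 4.81, 7.01 and 6.76% in knockout, and nuclear RNAs 1832, 740.5 and 445 CPM and 2574, 823 and 917 CPM, each higher within every numbered pair. The part of these shifts in the changes of the members was not tested.

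Mdm2, the feedback gene, was at 111, 117 and 124 CPM in wild-type CAD soma and 93.2, 107 and 105 CPM in knockout CAD soma. The knockout libraries were all lower, by a small margin in the closest pair. Mdm2 fell from 117 ± 6.34 to 102 ± 7.53 CPM (SD, n = 3) with a log2 change of -0.20 (95% interval -0.34 to -0.07, edgeR adjusted p = 0.0223). Cdkn1a was at 49.8, 45.5 and 47.5 CPM in wild-type CAD soma and 41.2, 43.5 and 45.3 CPM in knockout. Its groups did not overlap, yet the gap was narrow, and the log2 fold change of -0.13 had an edgeR adjusted p of 0.213. For Ccng1, wild-type CAD soma held 25.8, 30.0 and 28.7 CPM and knockout 22.1, 24.8 and 25.7 CPM. The highest knockout library lay just under the lowest wild-type library. Ccng1 fell from 28.2 ± 2.13 to 24.2 ± 1.86 CPM (SD, n = 3), to 0.860 of its wild-type level (log2 fold change -0.22, edgeR adjusted p = 0.0452).

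Gtse1 moved the other way, and by far the most. Wild-type CAD soma held 0.843, 0.984 and 0.848 CPM of Gtse1, and knockout CAD soma held 5.00, 3.96 and 4.39 CPM. Every knockout library was several times above every wild-type library. Gtse1 rose from 0.891 ± 0.0798 to 4.45 ± 0.524 CPM (SD, n = 3), a 4.97-fold change (log2 2.31, 95% interval 1.93 to 2.70, edgeR adjusted p = 7.73e-08). Zmat3 was at 129, 129 and 126 CPM in wild-type CAD soma and 104, 93.7 and 98.2 CPM in knockout. The 2 groups stood well apart. Zmat3 fell from 128 ± 1.44 to 98.6 ± 5.08 CPM (SD, n = 3), to 0.770 of its wild-type level (log2 -0.38, 95% interval -0.53 to -0.23, edgeR adjusted p = 0.000602).

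Bax, Aen, Phlda3 and Trp53inp1 were not called in CAD soma by the main fit. Bax was at 26.2, 25.4 and 28.8 CPM in wild-type and 26.0, 25.5 and 28.3 CPM in knockout libraries, nearly the same values (log2 -0.01, edgeR adjusted p = 0.945). Aen gave 47.7, 46.2 and 51.3 CPM before and 47.1, 46.6 and 47.0 CPM after knockout, with overlap (log2 -0.04, edgeR adjusted p = 0.612). Phlda3 gave 16, 15.2 and 19.5 CPM in wild-type and 17.4, 20.2 and 20.4 CPM in knockout, with 1 wild-type library inside the knockout range (log2 0.19, edgeR adjusted p = 0.176). Trp53inp1 was at 21.3, 26.3 and 21.5 CPM in wild-type and 19.7, 24.5 and 27.1 CPM in knockout, fully mixed (log2 0.05, edgeR adjusted p = 0.829). The Mdm2 call was lost without wild-type replicate 2 (-0.21, edgeR adjusted p = 0.0593), wild-type replicate 3 (-0.16, adjusted p = 0.112) or knockout replicate 1 (-0.14, adjusted p = 0.120), and with no filter (-0.23, adjusted p = 0.0631). The Ccng1 call was lost without wild-type replicates 2 (-0.18, edgeR adjusted p = 0.190) or 3 (-0.20, adjusted p = 0.125) or knockout replicates 1 (-0.16, adjusted p = 0.192) or 2 (-0.24, adjusted p = 0.0859). It was also lost with no filter (-0.24, edgeR adjusted p = 0.0643), with length-scaled counts (-0.21, adjusted p = 0.0729) and with only the 2 compared groups in the fit (-0.22, adjusted p = 0.0819), and Phlda3 gained a call without wild-type replicate 3 (0.31, adjusted p = 0.0344).

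**Figure D1:**
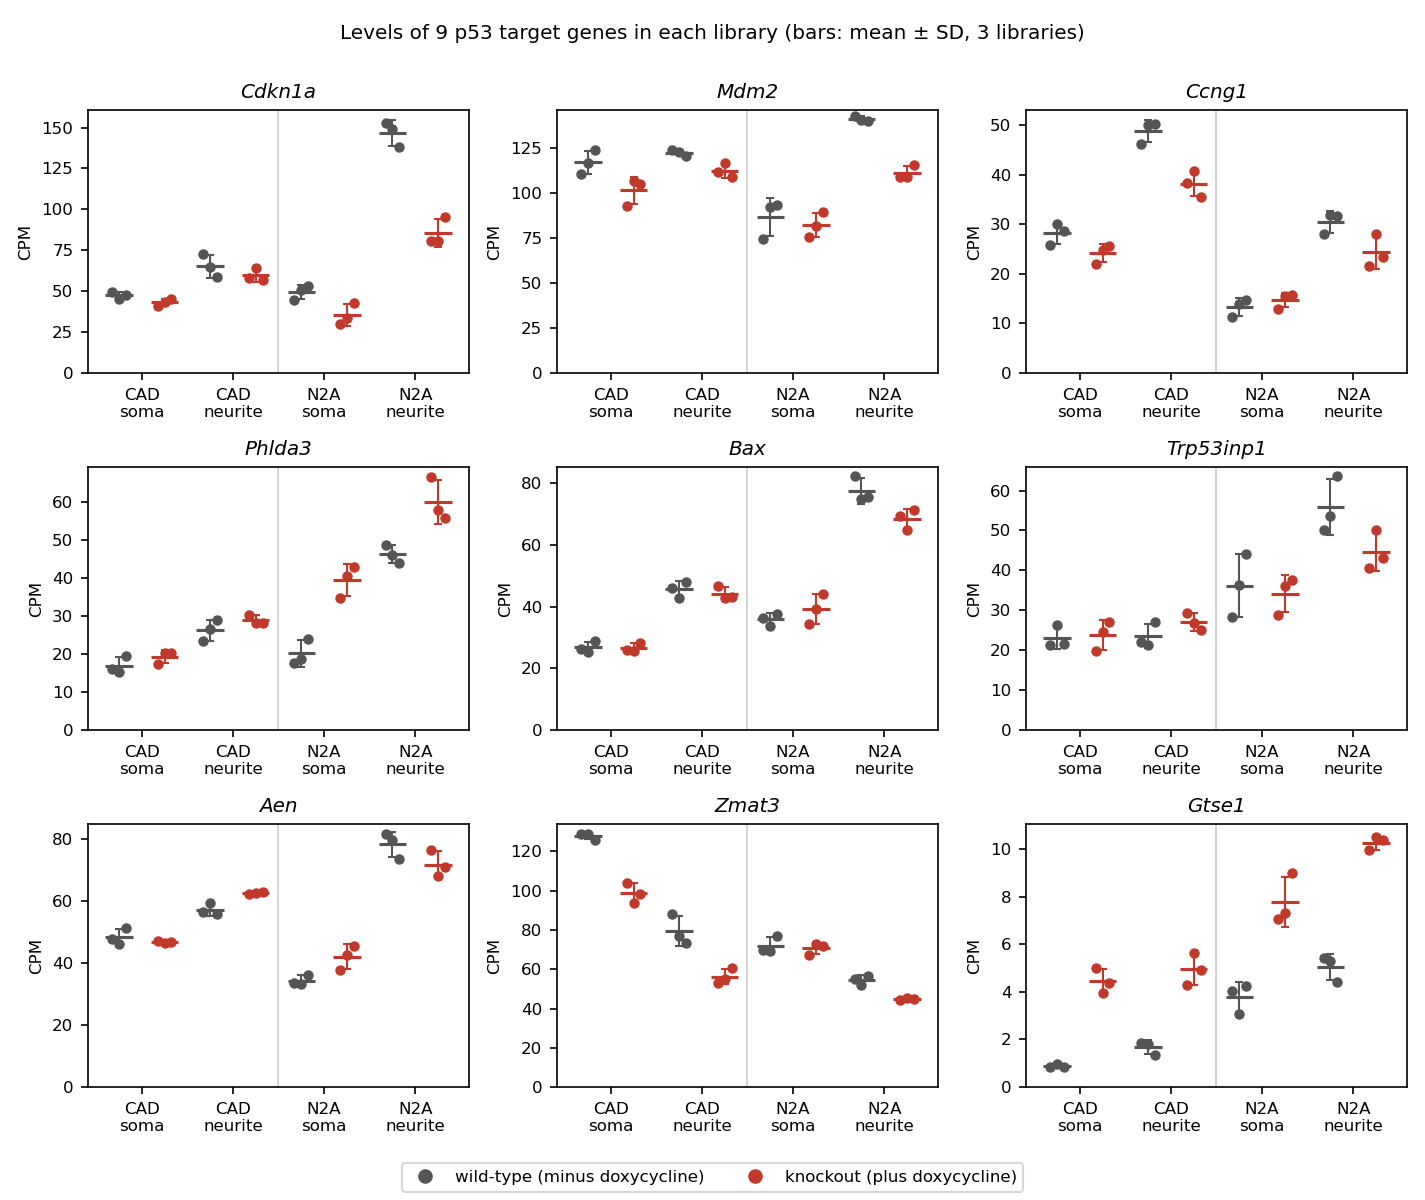
Levels of the 9 members in CPM in each CAD and N2A library, by line, compartment and genotype (grey, wild-type; red, knockout; bars, mean ± SD, n = 3). Gtse1 rose in every knockout group, from 0.891 to 4.45 CPM in CAD soma.

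In CAD neurites 1 of the 9 members rose (Gtse1) beside 17.3% of all genes and 2 fell (Ccng1 and Zmat3) beside 18.8% of all genes, and 36.1% of genes were called in either direction. The median change was -0.05 over the members and 0.00 over all genes, in log2. The catecholaminergic markers summed to 157, 176 and 161 CPM in wild-type and 188, 196 and 199 CPM in knockout CAD neurites, with 2 of 5 called higher (Dbh, 20.5 to 52.8 CPM, and Ddc) and 1 lower (Th) by edgeR (median 0.01). Glial markers, mostly Mbp, summed to 1.63, 1.37 and 1.65 CPM and 1.80, 1.87 and 2.23 CPM with neither of the 2 tested called. Neuronal markers gave 1 of 6 higher (Gap43) and 1 lower (Stmn2) by edgeR (median -0.01), and nuclear RNAs 1 of 3 higher (Meg3, 0.130 to 0.420 CPM). Mitochondrial genes held 14.5, 22.3 and 16.7% of counts in wild-type and 13.9, 19.5 and 15.5% in knockout, and the part of these shifts was not tested.

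In CAD neurites Mdm2 was at 124, 123 and 121 CPM in wild-type and 112, 117 and 109 CPM in knockout. Knockout libraries were lower throughout, but the log2 fold change of -0.12 had an edgeR adjusted p of 0.151. Cdkn1a was at 72.5, 64.6 and 58.4 CPM in wild-type CAD neurites and 57.8, 64.2 and 56.8 CPM in knockout. Those ranges overlapped (log2 -0.13, edgeR adjusted p = 0.221). Ccng1 was at 46.3, 50.0 and 50.3 CPM in wild-type CAD neurites and 38.4, 40.7 and 35.6 CPM in knockout. No knockout library came near the wild-type range. Ccng1 fell from 48.9 ± 2.22 to 38.2 ± 2.56 CPM (SD, n = 3), to 0.783 of its wild-type level (log2 -0.35, 95% interval -0.52 to -0.19, edgeR adjusted p = 0.00211). Gtse1 was at 1.86, 1.82 and 1.36 CPM in wild-type and 4.30, 5.65 and 4.91 CPM in knockout CAD neurites. Again the groups were far apart. Gtse1 rose from 1.68 ± 0.278 to 4.95 ± 0.677 CPM (SD, n = 3), 2.97-fold (log2 1.57, 95% interval 1.19 to 1.95, edgeR adjusted p = 4.13e-06).

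Zmat3 was at 87.9, 77.1 and 73.2 CPM in wild-type CAD neurites and 53.1, 55.1 and 60.7 CPM in knockout. All 3 knockout libraries were lower than all 3 wild-type libraries. Zmat3 fell from 79.4 ± 7.58 to 56.3 ± 3.98 CPM (SD, n = 3), to 0.710 of its wild-type level (log2 -0.50, 95% interval -0.65 to -0.34, edgeR adjusted p = 6.03e-05). Aen was at 56.4, 59.4 and 55.9 CPM in wild-type and 62.4, 62.7 and 63.0 CPM in knockout CAD neurites. Its knockout libraries were a little higher without overlap (log2 0.13, edgeR adjusted p = 0.0735). Bax was at 45.9, 42.9 and 48.1 CPM in wild-type CAD neurites and 46.6, 42.7 and 43.2 CPM in knockout, with overlap (log2 -0.05, edgeR adjusted p = 0.651). Phlda3 was at 23.4, 26.7 and 28.9 CPM in wild-type and 30.4, 28.2 and 28.3 CPM in knockout, with overlap (log2 0.14, edgeR adjusted p = 0.335). Trp53inp1 was at 22.1, 21.4 and 27.1 CPM in wild-type and 29.4, 26.7 and 25.1 CPM in knockout, with overlap (log2 0.20, edgeR adjusted p = 0.234). No left-out library changed a call of a member in CAD neurites, while Aen was called by edgeR under upper-quartile scaling (0.14, adjusted p = 0.0365) and with at least 10 counts in every library (0.15, adjusted p = 0.0322), and Mdm2 with length-scaled counts (-0.19, adjusted p = 0.0459).

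In N2A soma 3 of 9 members rose (Gtse1, Aen and Phlda3) beside 18.5% of all genes and 1 fell (Cdkn1a) beside 10.9% of all genes, with 29.3% of 17912 genes called. The median change was 0.13 over the members and -0.02 over all genes, in log2. Upper-quartile scaling turned the balance over all genes, from 3307 higher and 1948 lower to 2339 higher and 2845 lower, and still called 3 members higher and 1 lower. Knockout replicate 1 stood somewhat apart from the other 2 knockout libraries, since 7904 genes were called without it and 3285 without knockout replicate 2, against 5255 with all libraries. Mitochondrial genes held 4.10, 6.22 and 5.49% of counts in wild-type and 6.92, 8.95 and 7.28% in knockout N2A soma. The catecholaminergic marker Phox2a rose from 97.1 to 189 CPM (log2 0.96, edgeR adjusted p = 1.46e-05), while the other 4 of that list were not called (median -0.11 over the list). Fibroblast markers, mostly Col1a1, fell from 4.66, 3.54 and 4.73 to 3.07, 2.44 and 1.78 CPM in sum. Nuclear RNAs, mostly Malat1, were at 3009, 1165 and 898 CPM in wild-type and 2139, 577 and 445 CPM in knockout, lower within every numbered pair, with 1 of 3 called lower by edgeR (Neat1, log2 -1.50). Neuronal markers gave 2 of 6 higher and 1 lower (median -0.04), and the part of these shifts in the changes of the members was not tested.

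Mdm2 was at 74.6, 92.2 and 93.7 CPM in wild-type N2A soma and 75.9, 81.6 and 89.5 CPM in knockout. The knockout values fell inside the wild-type range (log2 -0.08, edgeR adjusted p = 0.528). Cdkn1a was at 44.9, 50.7 and 53.3 CPM in wild-type N2A soma and 30.0, 33.7 and 42.8 CPM in knockout. The highest knockout library stayed below the lowest wild-type library. Cdkn1a fell from 49.6 ± 4.27 to 35.5 ± 6.55 CPM (SD, n = 3), to 0.716 of its wild-type level (log2 -0.48, 95% interval -0.73 to -0.23, edgeR adjusted p = 0.00648). Ccng1 was at 11.3, 13.9 and 14.7 CPM in wild-type N2A soma and 13, 15.5 and 15.7 CPM in knockout, with overlap (log2 0.15, edgeR adjusted p = 0.355). Gtse1 was at 4.05, 3.08 and 4.26 CPM in wild-type and 7.06, 7.32 and 9 CPM in knockout N2A soma. The groups were clearly separate. Gtse1 rose from 3.80 ± 0.632 to 7.79 ± 1.05 CPM (SD, n = 3), 2.05-fold (log2 1.04, 95% interval 0.73 to 1.35, edgeR adjusted p = 0.000110).

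Phlda3, not called in CAD soma, was at 17.7, 18.7 and 24.1 CPM in wild-type N2A soma and 34.8, 40.7 and 42.9 CPM in knockout. All knockout libraries were far above all wild-type libraries. Phlda3 rose from 20.2 ± 3.43 to 39.5 ± 4.18 CPM (SD, n = 3), 1.96-fold (log2 0.97, 95% interval 0.72 to 1.22, edgeR adjusted p = 2.74e-05). Aen was at 33.6, 33.3 and 36.3 CPM in wild-type and 37.8, 42.8 and 45.7 CPM in knockout N2A soma. Its lowest knockout library was just above its highest wild-type library. Aen rose from 34.4 ± 1.64 to 42.1 ± 3.97 CPM (SD, n = 3), 1.23-fold (log2 0.29, 95% interval 0.11 to 0.47, edgeR adjusted p = 0.0172). Bax was at 36.3, 33.7 and 37.7 CPM in wild-type N2A soma and 34.5, 39.3 and 44.2 CPM in knockout, with overlap (log2 0.13, edgeR adjusted p = 0.276). Trp53inp1 was at 28.2, 36.4 and 44.0 CPM in wild-type and 28.9, 36 and 37.6 CPM in knockout, with full overlap (log2 -0.08, edgeR adjusted p = 0.687). Zmat3 was at 70.0, 69.1 and 76.9 CPM in wild-type and 67.5, 72.7 and 71.9 CPM in knockout, also with overlap (log2 -0.03, edgeR adjusted p = 0.787). The Cdkn1a call was lost without wild-type replicate 2 (-0.37, edgeR adjusted p = 0.0937), wild-type replicate 3 (-0.33, adjusted p = 0.107) or knockout replicate 1 (-0.29, adjusted p = 0.0618). The Aen call was lost without wild-type replicate 1 (0.28, edgeR adjusted p = 0.0582) or knockout replicate 2 (0.29, adjusted p = 0.0625), and Bax gained a call without knockout replicate 1 (0.31, adjusted p = 0.0148).

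In N2A neurites members moved in each direction. There 2 of 9 rose (Gtse1 and Phlda3) beside 10.8% of all genes and 3 fell (Mdm2, Cdkn1a and Zmat3) beside 10.3% of all genes, with 21% called in all. The fall of Cdkn1a was the largest decrease of any member in the knockout comparisons. The median change was -0.29 over the members and -0.01 over all genes, in log2. Mitochondrial genes held 3.82, 6.79 and 6.12% of counts in wild-type and 8.54, 14 and 9.01% in knockout N2A neurites. Of 5 catecholaminergic markers edgeR called 1 higher (Phox2a, 171 to 230.1 CPM) and 1 lower (Gata3, 22.0 to 13.7 CPM), with a median of -0.41. Of 6 neuronal markers 2 were called lower (Stmn2, 406 to 317 CPM, and Snap25, 255 to 198 CPM) and 4 were not called (median -0.11). Nuclear RNAs were at 597, 327 and 429.5 CPM in wild-type and 789, 431 and 581 CPM in knockout, higher within every numbered pair, with 1 of 3 called higher by edgeR (Meg3, 0.539 to 1.35 CPM), and the part of these shifts was not tested.

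Mdm2 was at 143, 141 and 140.2 CPM in wild-type N2A neurites and 109, 109 and 116 CPM in knockout. Each group was tight and the gap between them wide. Mdm2 fell from 141 ± 1.17 to 111 ± 3.99 CPM (SD, n = 3), to 0.789 of its wild-type level (log2 -0.34, 95% interval -0.53 to -0.15, edgeR adjusted p = 0.0123). Cdkn1a was at 153, 149 and 138 CPM in wild-type N2A neurites and 80.4, 80.8 and 95.3 CPM in knockout. No knockout library approached the wild-type range. Cdkn1a fell from 146 ± 7.54 to 85.5 ± 8.48 CPM (SD, n = 3), to 0.584 of its wild-type level (log2 -0.78, 95% interval -1.02 to -0.53, edgeR adjusted p = 0.000175). Ccng1 was at 28.0, 31.9 and 31.6 CPM in wild-type and 21.5, 28.1 and 23.4 CPM in knockout N2A neurites. A single knockout library reached into the wild-type range (log2 -0.33, edgeR adjusted p = 0.0599). Gtse1 was at 5.41, 5.32 and 4.41 CPM in wild-type N2A neurites and 9.95, 10.5 and 10.4 CPM in knockout. The knockout values were close to each other and all higher. Gtse1 rose from 5.05 ± 0.551 to 10.3 ± 0.303 CPM (SD, n = 3), 2.04-fold (log2 1.03, 95% interval 0.73 to 1.33, edgeR adjusted p = 0.000103).

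Phlda3 was at 48.7, 46.2 and 44.1 CPM in wild-type N2A neurites and 66.7, 57.9 and 55.8 CPM in knockout. All knockout libraries were higher. Phlda3 rose from 46.3 ± 2.31 to 60.1 ± 5.80 CPM (SD, n = 3), 1.30-fold (log2 0.38, 95% interval 0.14 to 0.62, edgeR adjusted p = 0.0269). Zmat3 was at 55.1, 52.2 and 56.6 CPM in wild-type N2A neurites and 44.3, 45.2 and 44.9 CPM in knockout. The groups were separate, as in CAD cells. Zmat3 fell from 54.7 ± 2.24 to 44.8 ± 0.447 CPM (SD, n = 3), to 0.819 of its wild-type level (log2 -0.29, 95% interval -0.44 to -0.14, edgeR adjusted p = 0.00919). Bax was at 82.4, 74.9 and 75.5 CPM in wild-type N2A neurites and 69.4, 64.7 and 71.2 CPM in knockout, lower in all 3 but short of a call (log2 -0.18, edgeR adjusted p = 0.178). Aen was at 81.7, 79.7 and 73.8 CPM in wild-type and 76.5, 68.2 and 71.0 CPM in knockout, with overlap (log2 -0.12, edgeR adjusted p = 0.333). Trp53inp1 was at 50.2, 53.6 and 63.7 CPM in wild-type and 40.6, 50.1 and 43.2 CPM in knockout, without overlap by a thin margin (log2 -0.32, edgeR adjusted p = 0.137).

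Several of these N2A neurite calls hung on single libraries or settings. The Phlda3 call was lost without wild-type replicate 1 (0.41, edgeR adjusted p = 0.0526), wild-type replicate 2 (0.37, adjusted p = 0.0909), wild-type replicate 3 (0.34, adjusted p = 0.108), knockout replicate 1 (0.30, adjusted p = 0.135) or knockout replicate 2 (0.40, adjusted p = 0.0544). The Mdm2 call was lost without knockout replicate 1 (-0.33, edgeR adjusted p = 0.0561), and Ccng1 gained a call without knockout replicate 2 (-0.45, adjusted p = 0.0216). With length-scaled counts the edgeR calls of Mdm2 (-0.28, adjusted p = 0.0913), Phlda3 (0.36, adjusted p = 0.0876) and Zmat3 (-0.21, adjusted p = 0.181) were lost, and Zmat3 was also lost with no filter (-0.28, adjusted p = 0.0542). Ccng1 was called by DESeq2 (-0.34, adjusted p = 0.0413) and with no filter (-0.32, adjusted p = 0.0323), as was Trp53inp1 with no filter (-0.32, adjusted p = 0.0221). With replicate number as a block, Ccng1 (-0.33, edgeR adjusted p = 0.00847) and Trp53inp1 (-0.32, adjusted p = 0.0273) were called lower as well. Across the 4 knockout comparisons Gtse1 was the only member called in each by the main fit, and Bax and Trp53inp1 were called in none by that fit.

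**Figure D2:**
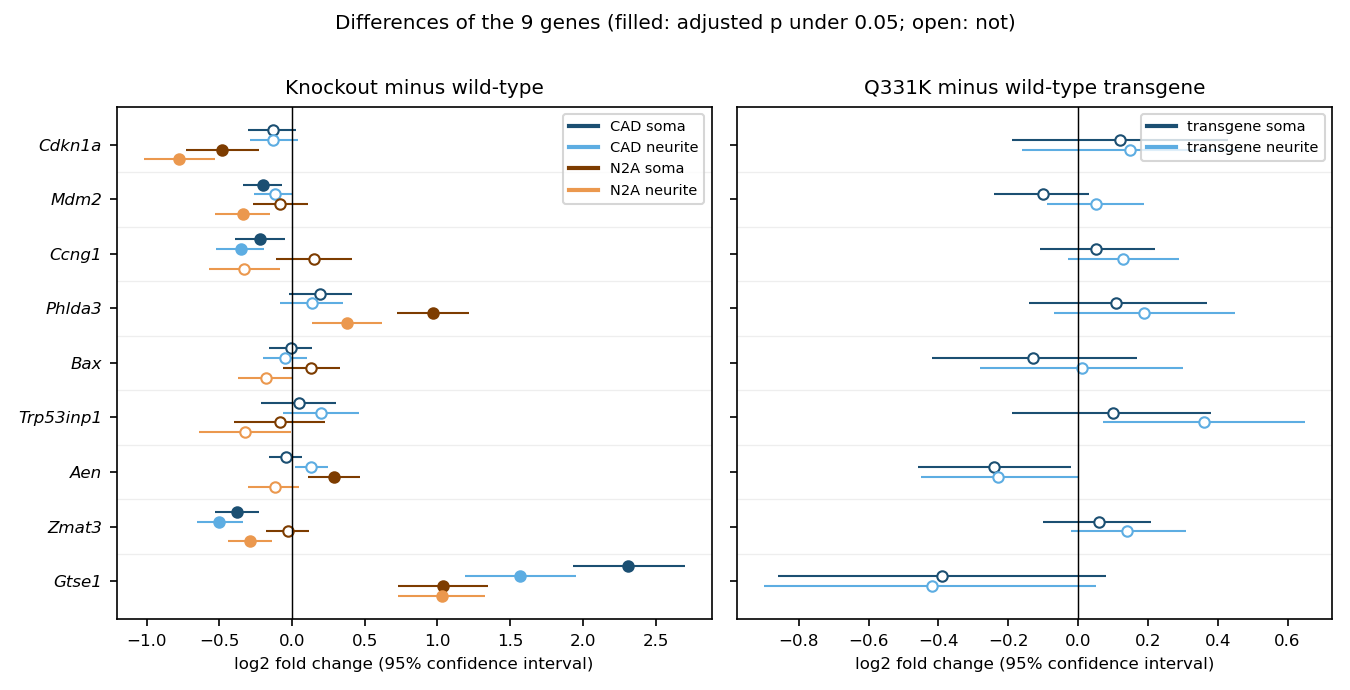
Log2 fold changes of the 9 members with 95% intervals, knockout minus wild-type (left) and Q331K minus wild-type transgene (right), with filled points at adjusted p under 0.05. Gtse1 was called in all 4 knockout comparisons (log2 2.31, 1.57, 1.04 and 1.03).

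The 2 lines were then compared in a single model of their 24 libraries. In soma the change of 1 of 9 members was higher in CAD (Gtse1) beside 5.40% of all genes, and that of 3 was lower (Phlda3, Aen and Zmat3) beside 14.7% of all genes, with 20.1% of 19700 genes called. In neurites only Cdkn1a differed, with a higher change in CAD beside 5.84% of all genes, and 0 members were lower beside 9.76% of all genes, with 15.6% called. In neurites 4 of 9 members had an unadjusted p under 0.05 beside 5431 of 19700 genes, and DESeq2 called the same count of 1 higher and 0 lower. The median difference over the members was -0.22 in soma and 0.16 in neurites, against -0.02 and -0.01 over all genes, in log2. Upper-quartile scaling turned the balance of soma differences over all genes from 1064 higher and 2890 lower to 2029 higher and 1512 lower, with 2 members higher and 1 lower. In neurites this scaling moved the balance from 1150 higher and 1922 lower to 1985 and 1953, with 2 members higher and 0 lower. Neuronal markers gave 3 of 6 lower in the soma comparison (median -0.31), and their part was not tested.

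In soma, the change of Gtse1 was larger in CAD than in N2A, 4.97-fold against 2.05-fold, by 1.20 in log2 (edgeR adjusted p = 0.000670). The change of Phlda3 was smaller in CAD by 0.85 (log2 -0.85, edgeR adjusted p = 0.00130). Phlda3 moved in N2A soma and stayed within overlapping ranges in CAD soma. Aen differed by -0.42 in log2 (edgeR adjusted p = 0.00736), with its increase called in N2A soma and not in CAD soma. The 24 libraries were scaled together in this model, so its values need not equal the gap between single-line changes (-0.04 and 0.29 for Aen). Zmat3 differed by -0.43 in log2 (edgeR adjusted p = 0.00417), since it fell in CAD soma and not in N2A soma. In neurites, Cdkn1a differed by 0.60 in log2 (95% interval 0.28 to 0.91, edgeR adjusted p = 0.00827), with the decrease in N2A. Gtse1 in neurites differed by 0.49 in log2 without a call (edgeR adjusted p = 0.162).

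Mdm2 was not called between lines in soma (log2 -0.20, edgeR adjusted p = 0.258) or neurites (log2 0.16, adjusted p = 0.427). Bax (log2 -0.22 in soma, edgeR adjusted p = 0.233) and Trp53inp1 (log2 0.06, adjusted p = 0.891) were not either. Ccng1 in soma missed a call in the main fit (log2 -0.45, edgeR adjusted p = 0.0559) and was called with replicate number as a block (-0.45, adjusted p = 0.00919), with no filter (-0.52, adjusted p = 0.0127), with length-scaled counts (-0.56, adjusted p = 0.0197) and by DESeq2 (-0.39, adjusted p = 0.0442). By edgeR it also gained a call without CAD wild-type replicate 1 (-0.53, adjusted p = 0.0313), N2A wild-type replicate 3 (-0.55, adjusted p = 0.0253) or N2A knockout replicate 1 (-0.55, adjusted p = 0.0168). Bax gained a call in soma without N2A knockout replicate 1 (-0.33, edgeR adjusted p = 0.0426), and Cdkn1a without N2A knockout replicate 3 (0.44, adjusted p = 0.0358). Under upper-quartile scaling the soma calls of Aen (-0.22, edgeR adjusted p = 0.0539) and Zmat3 (-0.24, adjusted p = 0.0933) were lost, and Cdkn1a gained one (0.46, adjusted p = 0.0163). With at least 10 counts in every library, the soma differences of Aen (-0.26) and Zmat3 (-0.28) were smaller but still called, and Cdkn1a was called again (0.42, edgeR adjusted p = 0.0190). Aen gained a call in neurites under these 2 settings (0.25, edgeR adjusted p = 0.0237, and 0.22, adjusted p = 0.0323), and Trp53inp1 with no filter (0.48, adjusted p = 0.0249).

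LR was then compared between knockout and wild-type cells. LR values by genotype were taken from CPM with 0.5 added, while LR changes and their calls came from the fit. Most members leaned to neurites in each line, and Zmat3 leaned to soma. In CAD cells edgeR called 0 of 9 members, higher beside 0.404% and lower beside 0.577% of all genes (0.980% in all), while 2 members had an unadjusted p under 0.05 beside 1824 genes in all, and DESeq2 called 0 members. In N2A cells edgeR called 0 of 9 higher beside 3.13% and 2 of 9 lower (Phlda3 and Aen) beside 5.33% of all genes (8.46% in all), and DESeq2 called 5 members lower beside 2946 of 17912 genes lower. The median LR change of the members was -0.04 in CAD and -0.29 in N2A, against -0.01 over all genes in each line. In N2A cells 2 of 5 catecholaminergic markers (Phox2a and Gata3, median -0.38) and 1 of 6 neuronal markers (Gap43, median -0.23) had a lower LR by edgeR, and the 3 nuclear RNAs had a median change of 1.04 without a call. The part of these markers was not tested. Upper-quartile scaling turned the balance over all genes in N2A LR from 560 higher and 955 lower to 1189 higher and 525 lower, with 0 members higher and 1 lower by edgeR.

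Cdkn1a had an LR of 0.44 ± 0.13 in wild-type and 0.45 ± 0.12 in knockout CAD cells (SD, n = 3), equal within spread. In N2A cells its LR was 1.55 ± 0.19 in wild-type and 1.27 ± 0.13 in knockout (SD, n = 3), the highest LR of any member (change -0.29, edgeR adjusted p = 0.226). Mdm2 had an LR of 0.07 ± 0.10 and 0.15 ± 0.11 in CAD, and 0.71 ± 0.19 and 0.44 ± 0.07 in N2A (SD, n = 3), without a call. Ccng1 had an LR of 0.79 ± 0.05 and 0.65 ± 0.16 in CAD, and 1.18 ± 0.10 and 0.70 ± 0.14 in N2A (SD, n = 3, edgeR adjusted p = 0.0759 in N2A). Its N2A change was called with replicate number as a block (-0.48, edgeR adjusted p = 0.0225), with no filter (-0.50, adjusted p = 0.0271) and by DESeq2 (-0.52, adjusted p = 0.0261), which also called Bax (-0.36, adjusted p = 0.0380) and Zmat3 (-0.30, adjusted p = 0.0213). Gtse1 had an LR of 0.64 ± 0.17 in wild-type and 0.14 ± 0.33 in knockout CAD cells (SD, n = 3), lower without a call (change -0.74 in the model, edgeR adjusted p = 0.268). The 0.5 added to CPM pulls the wild-type LR toward 0 for Gtse1, which was at 0.891 CPM in wild-type CAD soma. Its N2A values, 0.38 ± 0.33 and 0.39 ± 0.16 (SD, n = 3), were alike. Zmat3 had a negative LR throughout, -0.69 ± 0.12 and -0.80 ± 0.14 in CAD and -0.39 ± 0.05 and -0.65 ± 0.04 in N2A (SD, n = 3).

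The N2A LR of Phlda3 ran from 0.86 to 1.43 in wild-type and from 0.37 to 0.93 in knockout replicates. These ranges overlapped, although the mean dropped from 1.19 ± 0.30 to 0.60 ± 0.29 (SD, n = 3). The edgeR change was -0.59 (95% interval -0.94 to -0.25, adjusted p = 0.0410), so the Phlda3 rise was larger in soma. The N2A LR of Aen ran from 1.02 to 1.27 in wild-type and from 0.63 to 1.01 in knockout replicates. Its mean fell from 1.18 ± 0.14 to 0.77 ± 0.21 (SD, n = 3), an edgeR change of -0.42 (95% interval -0.67 to -0.17, adjusted p = 0.0438). In CAD, Phlda3 stood at 0.63 ± 0.14 and 0.57 ± 0.19 and Aen at 0.24 ± 0.12 and 0.41 ± 0.01 (SD, n = 3), without calls. Bax had an LR of 0.76 ± 0.03 and 0.72 ± 0.12 in CAD and 1.10 ± 0.10 and 0.80 ± 0.18 in N2A (SD, n = 3). Trp53inp1 had 0.03 ± 0.31 and 0.19 ± 0.34 in CAD and 0.63 ± 0.16 and 0.38 ± 0.16 in N2A (SD, n = 3), the lowest LR after Zmat3 in wild-type CAD cells.

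Of 12 libraries left out in turn, 9 ended the N2A LR call of Phlda3 and 10 that of Aen. The Phlda3 LR call was lost without soma wild-type replicate 1 (-0.51, edgeR adjusted p = 0.0977) or 2 (-0.60, adjusted p = 0.119), soma knockout replicate 2 (-0.58, adjusted p = 0.107) or 3 (-0.56, adjusted p = 0.108), neurite wild-type replicate 1 (-0.57, adjusted p = 0.106), 2 (-0.61, adjusted p = 0.0840) or 3 (-0.64, adjusted p = 0.0550), or neurite knockout replicate 2 (-0.58, adjusted p = 0.0659) or 3 (-0.55, adjusted p = 0.0856). The Aen LR call was lost without soma wild-type replicate 1 (-0.40, edgeR adjusted p = 0.0987) or 2 (-0.46, adjusted p = 0.121), soma knockout replicate 2 (-0.42, adjusted p = 0.112) or 3 (-0.39, adjusted p = 0.118), neurite wild-type replicate 1 (-0.40, adjusted p = 0.113), 2 (-0.42, adjusted p = 0.0897) or 3 (-0.47, adjusted p = 0.0529), or neurite knockout replicate 1 (-0.48, adjusted p = 0.0550), 2 (-0.40, adjusted p = 0.0773) or 3 (-0.42, adjusted p = 0.0841). With length-scaled counts the edgeR calls of Phlda3 (-0.68, adjusted p = 0.0556) and Aen (-0.50, adjusted p = 0.0596) were lost, and Aen was also lost under upper-quartile scaling (-0.29, adjusted p = 0.0567). Without soma knockout replicate 1, Cdkn1a (-0.46, edgeR adjusted p = 0.0406), Mdm2 (-0.38, adjusted p = 0.0435), Ccng1 (-0.62, adjusted p = 0.0200), Bax (-0.46, adjusted p = 0.0152) and Zmat3 (-0.35, adjusted p = 0.0279) gained a call. Over all genes, 1515 were called in N2A LR with all libraries and 4972 without soma knockout replicate 1. The count was 41 and 14 without soma wild-type replicates 1 and 2, 20 and 19 without soma knockout replicates 2 and 3, 31, 39 and 617 without neurite wild-type replicates 1, 2 and 3, and 535, 721 and 103 without neurite knockout replicates 1, 2 and 3.

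No member was called between the Q331K and wild-type alleles. In soma edgeR called 0 of 9 members and 0% of 13940 genes in either direction, with 1 member and 995 genes at an unadjusted p under 0.05, while DESeq2 called 0 members and 23 genes. In neurites edgeR again called 0 of 9 members and 0% of genes, with 2 members and 1372 genes at an unadjusted p under 0.05, while DESeq2 called 0 members and 53 genes. For LR edgeR called 0 members and 0 genes, with 0 members and 605 genes at an unadjusted p under 0.05, and DESeq2 called 0 genes. The median change of the members was 0.05 in soma and 0.13 in neurites, against 0.00 and -0.01 over all genes, in log2. Mitochondrial genes held 5.47, 4.88 and 5.25% of counts with the wild-type allele and 7.36, 5.61 and 6.37% with Q331K in soma. In neurites they held 13.5, 14.3 and 12% and 14.7, 15.5 and 17.4%, without overlap in either compartment. Fibroblast markers, mostly Dcn, summed to 18.6, 21.1 and 19.2 CPM with the wild-type allele in soma. With Q331K they were at 25.3, 19.9 and 22.6 CPM, with overlap. Neurite sums were 14.6, 16.9 and 12.2 CPM and 18.6, 17.3 and 19.2 CPM, without overlap. Of the 2 tested, edgeR called 0 in soma and 0 in neurites, and the part of these shifts was not tested.

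Cdkn1a was at 25.9, 26.5 and 24.5 CPM with the wild-type allele and 32.6, 26.0 and 25.2 CPM with Q331K in soma, with overlap (log2 0.12, edgeR adjusted p = 0.927). Mdm2 was at 112, 118 and 121 CPM with the wild-type allele and 109, 108 and 109 CPM with Q331K in soma. Its Q331K libraries were all lower, without a call (log2 -0.10, edgeR adjusted p = 0.791). Gtse1 in soma was at 6.49, 7.66 and 8.56 CPM with the wild-type allele and 4.95, 6.96 and 5.29 CPM with Q331K. In neurites it was at 6.55, 8.98 and 11.6 CPM and 4.98, 7.94 and 7.42 CPM. The alleles overlapped in each compartment, and the change of -0.39 in soma (edgeR adjusted p = 0.750) and -0.42 in neurites (adjusted p = 0.569) had the opposite sign to that in knockout cells. Aen in soma was at 39.9, 44.1 and 44.8 CPM with the wild-type allele and 33.7, 41.3 and 33.7 CPM with Q331K (log2 -0.24, edgeR adjusted p = 0.656). Its neurite level was 49.6 ± 3.37 CPM with the wild-type allele and 42.3 ± 5.62 CPM with Q331K (SD, n = 3). The alleles did not overlap there, without a call (log2 -0.23, edgeR adjusted p = 0.501). Trp53inp1 in neurites was at 29.9, 32.9 and 24.3 CPM with the wild-type allele and 32.6, 33.3 and 45.5 CPM with Q331K, with overlap (log2 0.36, edgeR adjusted p = 0.417). Zmat3 in soma was at 65.2, 69.4 and 68.1 CPM with the wild-type allele and 71.7, 71.7 and 67.6 CPM with Q331K, also with overlap (log2 0.06, edgeR adjusted p = 0.928). In soma Bax (log2 -0.13), Ccng1 (log2 0.05) and Phlda3 (log2 0.11) gave edgeR adjusted p of 0.906, 0.936 and 0.902. Beside the members, soma gave Trp53 0.05, Mdm4 -0.01, Bbc3 -0.04, Btg2 0.19, Sesn2 -0.07, Gdf15 -0.06 and Ppm1d 0.15 in log2 (edgeR adjusted p = 0.838 to 0.993). Neurites gave Trp53 0.03, Mdm4 -0.08, Bbc3 -0.19, Btg2 0.29, Sesn2 -0.17, Gdf15 -0.87 and Ppm1d 0.03 (edgeR adjusted p = 0.366 to 0.955), and Pmaip1 had 0 CPM in every transgene library. Leaving out 1 library gave edgeR counts of 3 and 1 genes in soma without Q331K replicates 2 and 3, 7 and 1 in neurites without wild-type replicate 2 and Q331K replicate 1, and 1 for LR without soma Q331K replicate 1, 2 or 3, with 0 members in each case.

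Other genes on p53's target list were called in each direction. Of 38 tested in CAD soma, 9 rose beside 15.9% of all genes and 4 fell beside 16.8% (median 0.06), and in CAD neurites 9 rose beside 17.3% and 5 fell beside 18.8% (median 0.03). Of 36 tested in N2A soma, 6 rose beside 18.5% and 9 fell beside 10.9% (median 0.01), and in N2A neurites 3 rose beside 10.8% and 9 fell beside 10.3% (median -0.11). The largest changes in CAD soma by edgeR were those of Trp53cor1 (log2 1.57, adjusted p = 0.000144), Rprm (-1.09, adjusted p = 5.28e-06), Btg2, Gls2 (0.66, adjusted p = 6.39e-05) and Polk. In CAD neurites they were those of Epha2 (log2 -1.34, edgeR adjusted p = 0.0361), Ptprv (-1.28, adjusted p = 0.00205), Rprm (-1.07, adjusted p = 8.56e-06), Btg2 and Trp53cor1 (0.82, adjusted p = 0.0314). N2A soma gave Fas (log2 -1.06, edgeR adjusted p = 0.0144), Siva1 (0.84, adjusted p = 0.0160), Gadd45a, Cd82 (-0.60, adjusted p = 2.82e-05) and Polk. N2A neurites gave Sulf2 (log2 1.55, edgeR adjusted p = 0.0206), Gadd45a, Sfn (0.82, adjusted p = 0.0240), Pidd1 (0.70, adjusted p = 0.00274) and Polk.

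Several of these calls on less expressed targets did not hold in every fit. The Epha2 call in CAD neurites was lost without wild-type replicate 1 (-1.13, edgeR adjusted p = 0.129) or 2 (-1.18, adjusted p = 0.114) or knockout replicate 2 (-1.12, adjusted p = 0.131) or 3 (-1.06, adjusted p = 0.134), and its value was -2.04, still called, without knockout replicate 1. It was also lost with length-scaled counts (-0.89, edgeR adjusted p = 0.257), as was Ptprv (-1.21, adjusted p = 0.164), and with only the 2 compared groups (-1.32, adjusted p = 0.0567). The Trp53cor1 call in CAD neurites was lost with no filter (0.81, edgeR adjusted p = 0.0609) and without wild-type replicate 1 (0.79, adjusted p = 0.0806) or 3 (0.77, adjusted p = 0.0943) or knockout replicate 1 (0.77, adjusted p = 0.0879) or 3 (0.71, adjusted p = 0.105). In N2A soma Fas was lost without wild-type replicate 2 (-0.67, edgeR adjusted p = 0.130) or knockout replicate 2 (-0.86, adjusted p = 0.0763). Siva1 was lost there without wild-type replicate 1 (0.76, edgeR adjusted p = 0.0589) or knockout replicate 2 (0.72, adjusted p = 0.0768) and with only the 2 compared groups (0.80, adjusted p = 0.0673). In N2A neurites Sulf2 was lost without wild-type replicate 2 (1.67, edgeR adjusted p = 0.0514) or 3 (1.22, adjusted p = 0.0914) or knockout replicate 2 (1.42, adjusted p = 0.0719) or 3 (1.54, adjusted p = 0.0526). Sfn was lost there with no filter (0.83, edgeR adjusted p = 0.0967), with length-scaled counts (0.80, adjusted p = 0.0565) and without wild-type replicate 1 (0.86, adjusted p = 0.0534) or 2 (0.65, adjusted p = 0.113) or knockout replicate 3 (0.66, adjusted p = 0.105).

 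Btg2, an antiproliferative target, was at 16.1, 17 and 17 CPM in wild-type and 29.8, 29.7 and 29.7 CPM in knockout CAD soma, and rose with edgeR adjusted p = 3.17e-07 (log2 0.83). Btg2 also rose in CAD neurites (log2 0.91, edgeR adjusted p = 1.59e-07). In N2A soma it was not called in the main fit (log2 0.26, edgeR adjusted p = 0.0753), but was called by DESeq2 (0.29, adjusted p = 0.0388). By edgeR it was called there with no filter (0.29, adjusted p = 0.0365), with length-scaled counts (0.38, adjusted p = 0.0362) and without wild-type replicate 3 (0.42, adjusted p = 0.0265) or knockout replicate 1 (0.43, adjusted p = 0.00525). In N2A neurites Btg2 had the other sign without a call (log2 -0.15, edgeR adjusted p = 0.352). Gadd45a, a damage-response target, fell in N2A soma from 17.2 ± 2.12 to 10.2 ± 1.94 CPM (SD, n = 3, log2 -0.75, edgeR adjusted p = 0.00170) and in N2A neurites (log2 -0.83, adjusted p = 0.000547). Polk, which copies past damaged bases, fell in CAD soma (log2 -0.49, edgeR adjusted p = 0.00111), CAD neurites (log2 -0.64, adjusted p = 0.000146), N2A soma (log2 -0.58, adjusted p = 5.32e-05) and N2A neurites (log2 -0.69, adjusted p = 1.20e-05). Bbc3, the death gene that encodes PUMA, had log2 changes of 0.06, 0.03, 0.07 and 0.14 in the 4 comparisons (edgeR adjusted p = 0.678, 0.842, 0.669 and 0.431), with a call in N2A soma without knockout replicate 1 (0.28, adjusted p = 0.0393). Pmaip1, which encodes NOXA, was at or under 0.357 CPM in every CAD and N2A library and was not tested.

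Ppm1d, a phosphatase that turns p53 off, rose in N2A soma (log2 0.42, edgeR adjusted p = 0.00573) and CAD neurites (log2 0.31, adjusted p = 0.00901), the latter lost without knockout replicate 1 (0.25, adjusted p = 0.0503), and was not called in N2A neurites (log2 0.09, adjusted p = 0.605). Its rise in CAD soma (log2 0.27, edgeR adjusted p = 0.0229) was lost without wild-type replicate 1 (0.24, adjusted p = 0.0782) or 2 (0.27, adjusted p = 0.0659) or knockout replicate 2 (0.23, adjusted p = 0.107) or 3 (0.23, adjusted p = 0.104), and with no filter (0.24, adjusted p = 0.0902). Sesn2, a stress-response target, fell in N2A neurites (log2 -0.48, edgeR adjusted p = 0.0219), and this was lost without wild-type replicate 1 (-0.44, adjusted p = 0.0847) or 2 (-0.50, adjusted p = 0.0557) or knockout replicate 1 (-0.44, adjusted p = 0.0875) or 2 (-0.39, adjusted p = 0.102). Without knockout replicate 3 of N2A soma, Sesn2 (-0.47, edgeR adjusted p = 0.0177) and Gdf15 (-0.85, adjusted p = 0.0219) were called lower there, against -0.34 (adjusted p = 0.0759) and -0.59 (adjusted p = 0.0827) with all libraries. The falls shrank to -0.18 and -0.37 without wild-type replicate 3 and to -0.12 and -0.29 without knockout replicate 1, with no call. With replicate number as a block, edgeR called both in N2A soma (Sesn2 -0.35, adjusted p = 0.0230, Gdf15 -0.63, adjusted p = 0.00659). Sesn2 was called lower there by edgeR under upper-quartile scaling (-0.45, adjusted p = 0.0132), with no filter (-0.31, adjusted p = 0.0163) and with at least 10 counts in every library (-0.39, adjusted p = 0.0237). Gdf15, a secreted stress factor, was called lower by edgeR in the same 3 settings (-0.70, adjusted p = 0.0399, -0.56, adjusted p = 3.77e-06, and -0.65, adjusted p = 0.0438). In CAD soma and neurites Sesn2 was at 0.06 (edgeR adjusted p = 0.691) and 0.03 (adjusted p = 0.842), and Gdf15 at -0.25 (adjusted p = 0.380) and -0.19 (adjusted p = 0.513), with Gdf15 at -0.11 in N2A neurites (adjusted p = 0.814).

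Trp53 and genes that control p53 made a list of 12 tested genes. Of these, edgeR called 6 higher beside 15.9% of all genes and 0 lower beside 16.8% in CAD soma (median 0.24). In CAD neurites it called 5 higher beside 17.3% and 1 lower beside 18.8% (median 0.12). It called 6 higher beside 18.5% and 0 lower beside 10.9% in N2A soma (median 0.17), and 3 higher beside 10.8% and 0 lower beside 10.3% in N2A neurites (median 0.04). At an unadjusted p under 0.05 there were 6, 8, 6 and 5 of these genes in either direction, beside 7012 and 7666 of 17343 genes in CAD soma and neurites and 7514 and 5792 of 17912 in N2A soma and neurites. Trp53 itself was at 86.5, 88.8 and 92.3 CPM in wild-type and 110.2, 119.7 and 139 CPM in knockout N2A soma, without overlap, and rose (log2 0.46, edgeR adjusted p = 0.00157). In CAD soma Trp53 was at 53.5, 52.8 and 63.5 CPM in wild-type and 63.4, 70.4 and 68.6 CPM in knockout, a rise of 0.25 (edgeR adjusted p = 0.0157) that was lost without wild-type replicate 1 (0.21, adjusted p = 0.0792), wild-type replicate 2 (0.20, adjusted p = 0.108), knockout replicate 2 (0.22, adjusted p = 0.0876) or knockout replicate 3 (0.24, adjusted p = 0.0678), and with no filter (0.23, adjusted p = 0.0571). Neurites gave Trp53 changes of 0.15 in CAD (edgeR adjusted p = 0.130), called under upper-quartile scaling (0.17, adjusted p = 0.0491), and 0.04 in N2A (adjusted p = 0.809). Mdm4, the partner of MDM2 in holding p53 down, was at 65.1, 62.8 and 62.3 CPM in wild-type and 106, 91.9 and 96.2 CPM in knockout CAD soma and rose there (log2 0.63, edgeR adjusted p = 1.13e-06) and in CAD neurites (log2 0.48, adjusted p = 2.55e-05). In N2A soma (log2 0.02, edgeR adjusted p = 0.822) and neurites (log2 0.15, adjusted p = 0.203) Mdm4 was not called in the main fit. Length-scaled counts gave Mdm4 changes of 1.06 in CAD soma, 0.87 in CAD neurites and 0.60 in N2A neurites, where edgeR then called it (adjusted p = 0.00325). Chek2, a damage kinase, was at 0.290, 0.246 and 0.311 CPM in wild-type and 2.37, 2.23 and 1.59 CPM in knockout CAD soma (log2 2.85, edgeR adjusted p = 1.92e-06) and also rose in CAD neurites (log2 2.91, adjusted p = 1.52e-06) and N2A neurites (log2 1.19, adjusted p = 6.34e-05). Its rise in N2A soma (log2 0.75, edgeR adjusted p = 0.00252) was lost with length-scaled counts (0.12, adjusted p = 0.740).

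Chek1, the kinase of stalled replication, rose by 0.55 in CAD soma (edgeR adjusted p = 0.00227), 0.74 in CAD neurites (adjusted p = 0.000291), 0.68 in N2A soma (adjusted p = 0.00287) and 0.66 in N2A neurites (adjusted p = 0.00344). With length-scaled counts the edgeR calls of Chek1 in N2A soma (0.34, adjusted p = 0.242) and neurites (0.37, adjusted p = 0.263) were lost. Atm, which signals breaks to p53, rose by 0.49 in CAD soma (edgeR adjusted p = 0.000907), 0.66 in CAD neurites (adjusted p = 9.03e-05), 0.38 in N2A soma (adjusted p = 0.00494) and 0.52 in N2A neurites (adjusted p = 0.000755). With length-scaled counts Atm was at 0.44 in CAD soma (edgeR adjusted p = 0.107), 1.24 in CAD neurites, 0.18 in N2A soma (adjusted p = 0.645) and -0.22 in N2A neurites (adjusted p = 0.693), so only the CAD neurite call was kept. Trp53bp1 rose in CAD soma (log2 0.27, edgeR adjusted p = 0.00683), which was lost with no filter (0.24, adjusted p = 0.0515) and with length-scaled counts (0.24, adjusted p = 0.192), and in CAD neurites (0.42, adjusted p = 0.000192). Cdkn2a, whose ARF product holds MDM2 back, rose in N2A soma (log2 0.44, edgeR adjusted p = 0.0174). That call was lost with only the 2 compared groups (0.40, edgeR adjusted p = 0.0712) and without wild-type replicate 1 (0.40, adjusted p = 0.0661) or 2 (0.45, adjusted p = 0.0557) or knockout replicate 2 (0.42, adjusted p = 0.0654) or 3 (0.39, adjusted p = 0.0591), and the change was 0.69, still called, without wild-type replicate 3. Crebbp fell in CAD neurites (log2 -0.54, edgeR adjusted p = 0.0232), which was lost by DESeq2 (-0.54, adjusted p = 0.0627) and without wild-type replicate 1 (-0.32, adjusted p = 0.152) or knockout replicate 1 (-0.47, adjusted p = 0.0881) or 2 (-0.47, adjusted p = 0.0859).

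Cell-cycle genes rose together in every knockout comparison, and Gtse1 is expressed with them. Of 30 G2/M and S phase genes, 29 rose in CAD soma beside 15.9% of all genes (median 1.67), 27 in CAD neurites beside 17.3% (median 1.26), 29 in N2A soma beside 18.5% (median 1.19) and 29 in N2A neurites beside 10.8% (median 0.79), with 0 lower by edgeR in each. The Gtse1 changes of 2.31, 1.57, 1.04 and 1.03 stood beside G2/M medians of 1.90, 1.52, 1.21 and 0.85. The summed G2/M level was 102, 89.2 and 101 CPM in wild-type and 399, 401 and 380.1 CPM in knockout CAD soma. In N2A soma it was 253, 259.6 and 226 CPM in wild-type and 557, 581 and 619.9 CPM in knockout, again without overlap. Q331K cells gave cycle medians of -0.23 in soma and -0.25 in neurites, with 0 of 30 genes called by edgeR. The rise of these genes and the fall of Cdkn1a in N2A cells occurred in the same libraries, and whether they are linked was not tested. Genes of the ATF4 and CHOP stress pathway gave 5 of 10 higher beside 15.9% and 2 lower beside 16.8% of all genes in CAD soma (median 0.25), and 8 higher beside 17.3% and 1 lower beside 18.8% in CAD neurites (median 0.30). In N2A soma edgeR called 0 of them higher beside 18.5% and 4 lower beside 10.9% (median -0.31), and in N2A neurites 0 higher beside 10.8% and 8 lower beside 10.3% (median -0.41). The N2A soma call of Ddit3 (-0.43, edgeR adjusted p = 0.00985) was lost without wild-type replicate 2 (-0.33, adjusted p = 0.120) or 3 (-0.35, adjusted p = 0.0779) or knockout replicate 1 (-0.24, adjusted p = 0.0953) or 2 (-0.37, adjusted p = 0.0647). That of Trib3 (-0.39, edgeR adjusted p = 0.0495) was lost without wild-type replicate 1 (-0.38, adjusted p = 0.112), 2 (-0.36, adjusted p = 0.155) or 3 (-0.24, adjusted p = 0.304) or knockout replicate 1 (-0.20, adjusted p = 0.299) or 2 (-0.31, adjusted p = 0.209). Length-scaled counts ended the edgeR calls of Ddit3 (-0.32, adjusted p = 0.0803) and Trib3 (-0.37, adjusted p = 0.0752) in N2A soma and of Psat1 in CAD soma (-0.02, adjusted p = 0.891). In N2A neurites Trib3 and Chac1 were lost without wild-type replicate 1 (-0.44, edgeR adjusted p = 0.0856, and -0.42, adjusted p = 0.0676), knockout replicate 1 (-0.49, adjusted p = 0.0646, and -0.47, adjusted p = 0.0512) or knockout replicate 2 (-0.41, adjusted p = 0.0891, and -0.42, adjusted p = 0.0661). Further death genes, mostly of the BCL-2 family, gave 2 of 9 higher beside 15.9% of all genes in CAD soma and beside 17.3% in CAD neurites, 1 higher beside 18.5% in N2A soma, and 1 higher (Bcl2) beside 10.8% and 2 lower (Bak1 and Casp9) beside 10.3% in N2A neurites. The Bcl2 call was lost without wild-type replicate 1 (0.34, edgeR adjusted p = 0.0507) or 3 (0.33, adjusted p = 0.0590) or knockout replicate 2 (0.29, adjusted p = 0.0692). The Bak1 call was lost with length-scaled counts (-0.38, edgeR adjusted p = 0.0739) and without wild-type replicate 1 (-0.33, adjusted p = 0.125) or 2 (-0.39, adjusted p = 0.0798) or knockout replicate 1 (-0.33, adjusted p = 0.121) or 2 (-0.41, adjusted p = 0.0597).

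**Figure D3:**
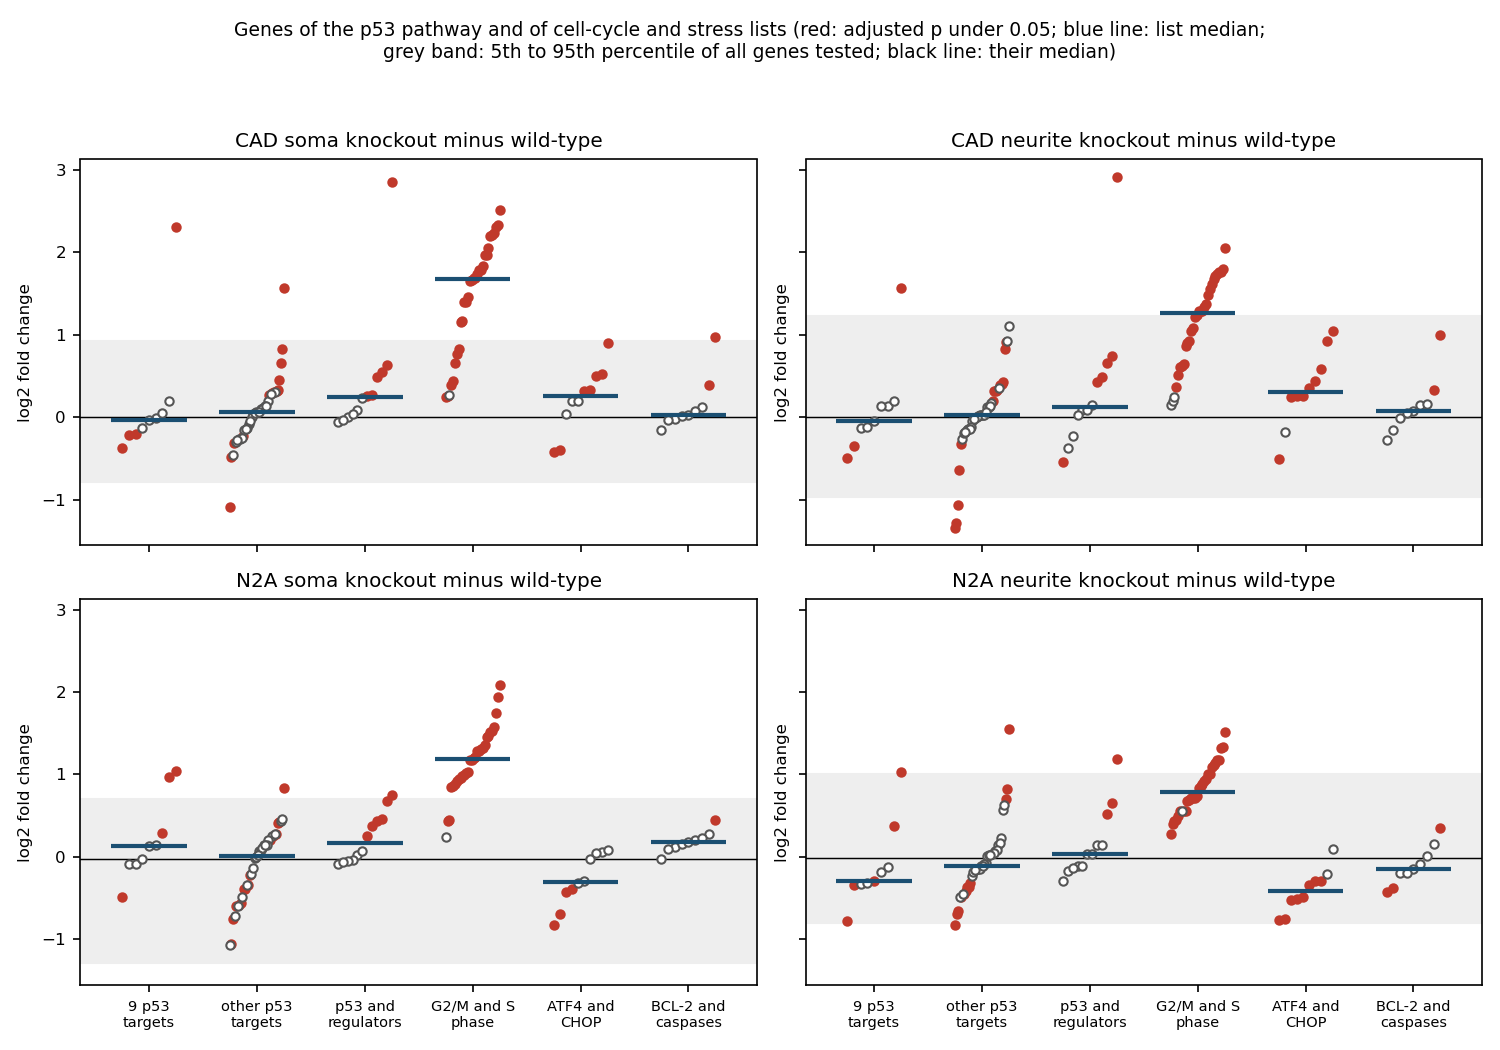
Log2 fold changes of the members and of further pathway genes in the 4 knockout comparisons (red, adjusted p under 0.05; blue line, list median; grey band, 5th to 95th percentile of all genes). G2/M and S phase genes had medians of 1.67, 1.26, 1.19 and 0.79.

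Likeness between genes was described over the 24 CAD and N2A libraries, centred on line and compartment, for 16199 genes. The genes closest to Cdkn1a were Hmox1 (r = 0.944, n = 24), Gpt2 (r = 0.941), Nfil3 (r = 0.937), Arih2 (r = 0.936) and Wdr1 (r = 0.933). Mdm2 lay closest to Nab1 (r = 0.944, n = 24), Capn2 (r = 0.921) and Arpc5 (r = 0.918). Mdm2 and Cdkn1a had r = 0.809 (n = 24), which put Mdm2 at rank 228 among the genes like Cdkn1a. Gtse1 and Zmat3 ran in opposite directions (r = -0.81, n = 24), as did Phlda3 and Cdkn1a (r = -0.63, n = 24). Aen and Phlda3 ran together (r = 0.66, n = 24), as did Ccng1 and Mdm2 (r = 0.76) and Zmat3 and Ccng1 (r = 0.66). Gtse1 and Mdm2 had r = -0.66 (n = 24). Values were not centred on genotype, so the knockout changes given above are part of each r.

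The promoters of the members were searched for the p53 response element, since a match near the start shows where p53 could bind. RefSeq entries on build GRCm38.p6 gave 300-base windows, 250 bases before and 50 after the start, for 7 members, and Trp53inp1 and Zmat3 were not in the promoter table used. Positions are from the RefSeq start, not the gene start above. Capitals below mark the core 4 bases of each of the 2 repeats in the element. At most 2 mismatches were met by 3 of 7 members (42.9%), Cdkn1a, Ccng1 and Gtse1, against 106 of 27025 genes (0.392%), 2 of 31 other p53 targets (6.45%, Rps27l and Zfp365) and 1 of 14 G2/M genes (7.14%, Kif23).
Cdkn1a: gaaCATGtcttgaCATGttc
Ccng1: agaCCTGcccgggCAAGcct
Gtse1: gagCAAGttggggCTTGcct
Aen: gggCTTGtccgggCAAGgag
The Cdkn1a match lay at -51 to -32 from the RefSeq start of 1 of its 2 windows, with 1 mismatch (chromosome 17, 29090928 to 29090947). The Ccng1 match lay at -195 to -176 from the start with 1 mismatch (chromosome 11, 40755462 to 40755481). The Gtse1 match, again with 1 mismatch, spanned the RefSeq start of 1 of its 2 windows (chromosome 15, 85859945 to 85859964), inside the gene as placed above. Aen had a match with 3 mismatches, 10 to 29 bases after the RefSeq start of 1 of its 2 windows (chromosome 7, 78895937 to 78895956). At most 3 mismatches were met by 441 genes (1.63%). Mdm2, Phlda3 and Bax had none in the window, where elements farther off, such as those in introns, could not be read. Of the 3 members with a match, Gtse1 rose in all 4 knockout comparisons, while Cdkn1a fell in N2A cells and Ccng1 fell in CAD cells.

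Motifs of cell-cycle promoters were added after the levels had been seen, and they were read on both strands. TTTGAA occurred in 2 of 7 members, Bax and Aen, in 11 of 14 G2/M genes (78.6%) and in 20.2% of all promoters. TTCGAA occurred in 0 members, 3 of 14 G2/M genes and 1.80% of all promoters. CCAAT occurred at least 2 times in 3 of 7 members (Ccng1, Aen and Gtse1), 9 of 14 G2/M genes (64.3%) and 13.3% of all promoters. Gtse1 thus had at least 2 CCAAT boxes in a window and no TTTGAA in either of its 2 windows. Whether that window is the one with its p53 element was not recorded. These matches describe sequence, and binding was not measured.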

How the data were processed

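The deposited files hold 1 table of transcripts for each of 36 mouse libraries, and human and reporter samples were left out. Estimated counts, TPM and effective lengths were deposited as the authors made them with Salmon after adapter trimming with cutadapt, with no versions given, on mm10. The column labelled other, the effective length, was likewise deposited by the authors and served only the length-scaled alternative. Transcripts were summed to genes with GENCODE vM21, while the methods name version 17. Estimated counts were rounded and fitted with edgeR 4.0.16 (quasi-likelihood, TMM, filterByExpr, Benjamini-Hochberg, FDR 0.05) in R 4.3.3, 1 model of 4 groups for each set and 1 model of 24 libraries for CAD against N2A. The code was checked and tested on simulated data, with far fewer changed genes than the knockout comparisons gave. Of seeded 1.5-fold changes, edgeR recovered 51.5% in CAD soma, 44.2% in N2A soma, 21.5% in CAD minus N2A soma and 53.5% in transgene soma. A gene without a call is therefore not shown to be unchanged. The fits were repeated with DESeq2 1.42.0, length-scaled counts, upper-quartile scaling, no filter, a floor of 10 counts in each library, FDR 0.01, a replicate block, only the 2 groups compared, and each library left out. Pairing by replicate number was checked between the 2 groups of a comparison in each compartment, by correlation after removing group means. Pairs of the same number gave r of 0.21 to 0.57 in CAD soma, 0.28 to 0.43 in N2A soma, 0.19 to 0.40 in N2A neurites and 0.12 to 0.26 in transgene soma. The numbers were taken as pairs there from the data alone. The r was 0.09 to 0.48 in CAD neurites and -0.10 to 0.20 in transgene neurites. The main fits did not use these pairs, which entered only the fits with a replicate block. SD and ranges of LR match soma and neurite libraries by number, and that pairing was not checked. The members, and lists of other p53 targets, p53 regulators, cell-cycle, stress-pathway, death and marker genes, were chosen with earlier results of these data known, and 4 genes of the lists are not reported here. Beside the members, genes reported in each knockout and Q331K comparison were Tardbp, Trp53, Mdm4, Bbc3, Pmaip1, Btg2, Sesn2, Gdf15 and Ppm1d, with up to 5 genes of a list past the FDR with the largest change in a comparison. Cell-cycle, stress-pathway and death genes in the knockout comparisons were given as counts, with the genes that lost a call. The labels give 2 μg/mL doxycycline, while the methods give 1 μg/mL.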

Additional observations from a re-analysis of the deposited data

Results flagged for a closer look

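Each value here is a difference between compartments or lines that the interaction test of edgeR called at FDR 0.05, in log2. The LR change in CAD cells was 0.63 for Tardbp, -0.85 for Mki67 and -0.45 for Top2a, so a larger part of Tardbp RNA was left in neurites than in soma. The Top2a call was lost with no filter (-0.43, edgeR adjusted p = 0.0683) and without each of the 12 libraries in turn except neurite knockout replicate 3 (adjusted p = 0.0570 to 0.106).

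In N2A cells the LR change was -0.59 for Phlda3, -0.42 for Aen and 0.37 for Tardbp. It was also negative for the p53 targets Rps27l (-0.59) and Ddit4 (-0.44), and for the cell-cycle genes Pcna (-0.58), Mcm4 (-0.53), Mcm6 (-0.50) and Ccnb1 (-0.45). All 6 of these calls were lost without soma wild-type replicate 1 or 2, soma knockout replicate 2 or 3, or neurite wild-type replicate 1 or 2 (edgeR adjusted p = 0.0700 to 0.128). Further losses came for Ddit4 and Mcm4 without neurite wild-type replicate 3 or any neurite knockout replicate, for Mcm6 without any neurite knockout replicate, for Pcna without neurite knockout replicate 2 or 3, for Rps27l without neurite knockout replicate 3, and for Ccnb1 without soma wild-type replicate 3 or neurite knockout replicate 1 or 3 (edgeR adjusted p = 0.0502 to 0.0943). Under upper-quartile scaling Ddit4 (-0.31, edgeR adjusted p = 0.0631) and Mcm4 (-0.41, adjusted p = 0.0607) were lost, and with length-scaled counts Ddit4 (-0.53, adjusted p = 0.0591), Mcm4 (-0.63, adjusted p = 0.0650) and Ccnb1 (-0.55, adjusted p = 0.0614). The Tardbp LR call in N2A was lost with no filter (0.35, edgeR adjusted p = 0.176), with length-scaled counts (0.18, adjusted p = 0.417) and without each of the 12 libraries in turn (adjusted p = 0.0746 to 0.223).

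The knockout effect in soma differed between CAD and N2A by -0.82 for Tardbp, 1.20 for Gtse1, -0.85 for Phlda3, -0.42 for Aen and -0.43 for Zmat3. Other p53 targets differed by 1.62 (Trp53cor1), 0.92 (Gls2), 0.79 (Gadd45a), 0.49 (Btg2) and -0.37 (Ei24), and p53 regulators by 2.03 (Chek2) and 0.53 (Mdm4). Cell-cycle genes differed by 1.23 (Bub1b), -1.14 (Mcm6), 1.07 (Mki67), 1.03 (Ccnb2) and 1.03 (Cenpf). Stress-pathway genes differed by 1.65 (Atf3), 1.11 (Ppp1r15a), 0.88 (Ddit3) and -0.58 (Psat1), and Bcl2l11 by 0.72. The Btg2 call was lost with no filter (0.42, edgeR adjusted p = 0.0547), with length-scaled counts (0.44, adjusted p = 0.0612) and without N2A soma wild-type replicate 3 (0.40, adjusted p = 0.0554). The Ei24 call was lost with upper-quartile scaling (-0.18, edgeR adjusted p = 0.194), with at least 10 counts in every library (-0.22, adjusted p = 0.0793), with length-scaled counts (-0.34, adjusted p = 0.107) and without CAD wild-type replicate 3, CAD knockout replicate 1, N2A wild-type replicate 1 or 2, or N2A knockout replicate 3 (adjusted p = 0.0606 to 0.142). The Ccnb2 call was lost without CAD wild-type replicate 2 (0.85, edgeR adjusted p = 0.0650), CAD knockout replicate 2 (0.89, adjusted p = 0.0519) or N2A wild-type replicate 1 (0.89, adjusted p = 0.0606), and that of Psat1 with length-scaled counts (-0.13, adjusted p = 0.578).

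In neurites the knockout effect differed between the lines by 0.60 for Cdkn1a and -0.53 for Tardbp. Other p53 targets differed by -1.62 (Sulf2), -1.55 (Ptprv), 1.01 (Btg2), 0.91 (Gadd45a) and 0.78 (Gls2), and Chek2 by 1.67. Cell-cycle genes differed by 1.16 (Bub1b), 1.06 (Kif23), -0.85 (Mcm6), 0.83 (Kif20a) and 0.81 (Bub1). Stress-pathway genes differed by 1.74 (Atf3), 1.38 (Ddit3), 1.28 (Ppp1r15a), 0.73 (Atf4) and 0.69 (Trib3), and death genes by 1.02 (Bcl2l11) and -0.69 (Bcl2). With length-scaled counts the calls of Gls2 (0.40, edgeR adjusted p = 0.387) and Ptprv (-1.36, adjusted p = 0.288) were lost.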

How the results depend on the processing

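No member was called in opposite directions by 2 settings, but values without a call changed sign, as in N2A soma for Mdm2 (-0.18 to 0.08), Trp53inp1 (-0.23 to 0.18) and Zmat3 (-0.13 to 0.12). Members called in CAD soma went from 4 to 2 with no filter and to 2 at FDR 0.01, and ran from 2 to 4 with 1 library left out. In N2A neurites they went from 5 to 2 with length-scaled counts and to 3 at FDR 0.01, and ran from 3 to 5 with 1 library left out. For N2A LR they went from 2 to 5 with DESeq2, 1 under upper-quartile scaling and 0 with length-scaled counts or at FDR 0.01, and ran from 0 to 7 with 1 library left out. For CAD minus N2A in neurites they went from 1 to 2 under upper-quartile scaling, with no filter and with at least 10 counts in every library. The cause of these moves was not tested.

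Over all genes, N2A soma gave 2877 calls at FDR 0.01 and 3285 to 7904 with 1 library left out, and N2A neurites gave 2074 at FDR 0.01. CAD minus N2A gave 2070 in soma and 1808 in neurites at FDR 0.01. Q331K minus wild-type soma gave 23 by DESeq2, 192 with no filter, 1 with length-scaled counts and 0 to 3 with 1 library left out. Q331K neurites gave 53 by DESeq2, 207 with no filter and 0 to 7 with 1 library left out, and Q331K LR gave 69 with no filter and 0 to 1 with 1 library left out. CAD LR gave 170 in the model used, 386 by DESeq2, 393 with no filter, 107 with length-scaled counts, 75 at FDR 0.01 and 97 to 247 with 1 library left out. N2A LR gave 1515, against 3780 by DESeq2, 2363 with no filter, 499 with length-scaled counts, 18 at FDR 0.01 and 14 to 4972 with 1 library left out. Atm in N2A neurites went from 0.52 to -0.22 with length-scaled counts, where it was not called (edgeR adjusted p = 0.693).

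Upper-quartile scaling moved the median of all genes to -0.12 in N2A soma (2339 higher, 2845 lower) and 0.11 in N2A LR (1189 and 525). The median moved to 0.17 in CAD minus N2A soma (2029 and 1512) and 0.04 in CAD minus N2A neurites (1985 and 1953). In each of these comparisons the larger direction changed. With a replicate block, N2A LR gave 2842 calls, including Ccng1 (-0.48, edgeR adjusted p = 0.0225) and Trp53 (-0.42, adjusted p = 0.0329). The block also called Sesn2 (-0.35, edgeR adjusted p = 0.0230) and Gdf15 (-0.63, adjusted p = 0.00659) in N2A soma, Ccng1 (-0.45, adjusted p = 0.00919) in CAD minus N2A soma, and Mdm4 (0.27, adjusted p = 0.0360) and Sesn2 (0.47, adjusted p = 0.0336) in CAD minus N2A neurites, and beside the N2A neurite calls given above it changed no other call of a member. Searches for p53 elements in windows of 5000 and 2000 bases were planned and not run, since no genome was given.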
